A study of Rattus norvegicus with 3 samples.

Results

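The genes described here are 8 DNA repair genes that act on alkylated bases or on the lesions such bases leave behind: Mgmt, Mpg, Alkbh2, Alkbh3, Msh6, Pms2, Xrcc1 and Parp1. They were taken by gene symbol from the deposited expression table, and all 8 were found among its 18425 genes. The table came from dissected retinas of wild-type (WT) Sprague-Dawley rats that received 1 µl into the vitreous at postnatal day 1 (P1) and whose retinas were harvested at P4. The buffer eyes received citrate buffer at pH 4.5 and the saline eyes received saline. The STZ eyes received 10 µg of streptozotocin (STZ) diluted from a stock in citrate buffer. For its intravitreal injections at P1, the paper describes STZ in right eyes and citrate buffer in the left eyes of those animals. Whether the sequenced buffer and STZ retinas came from the same animals is not stated. Each condition gave 1 library. Variation between animals could therefore not be measured, no difference has a replicate check and no p-value is given. The number of retinas behind a library is not given in the sources used here.

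STZ is a glucosamine linked to a methylnitrosourea, and it methylates DNA. Cells answer such damage by several routes. Direct reversal takes the methyl group off the base: MGMT accepts it from the oxygen of guanine and is used up in the reaction, and the AlkB-type dioxygenases ALKBH2 and ALKBH3 oxidise it off ring nitrogens of adenine and cytosine. Base excision repair starts with a glycosylase, for which MPG is the enzyme of methylated purines, and goes on through an abasic site and a nicked strand that PARP1 senses and XRCC1 helps to close. Mismatch repair, in which MSH6 helps to find the mismatch and PMS2 to cut near it, also recognises methylguanine paired with thymine, and is known for turning unrepaired methylguanine into strand breaks and cell death when cells replicate. The neonatal rat retina still holds many dividing progenitor cells at the ages studied.

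Each gene was measured as an estimated read count and as FPKM (its fragments divided by transcript length and by library size), and the 3 libraries were of nearly equal depth, with 21977876 to 22031287 reads assigned to genes. The fold is (FPKM + 1)/(FPKM + 1), and a gene was called higher where it was more than 54% above 1 (the upper limit) and lower where it was below 0.65 (the lower limit). The added 1 makes the folds of genes at a low level closer to 1 than their ratios of FPKM. The count ratio divides the share of reads that a gene took in 1 library by its share in the other, and the range in brackets after it is its exact 95% interval by the Clopper-Pearson method. Such ranges reflect counting error alone, and they compare libraries rather than conditions. PCR copies of a molecule were not marked by molecular identifiers, so copies counted as reads could make the ranges too narrow. All 8 genes had whole-number counts in all 3 libraries. The 3 comparisons share libraries with each other and are not independent. The 17 retinal marker genes checked were all present in every library, with no fewer than 87 reads each.

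Promoters are shown for the 3 genes whose counting intervals excluded 1 in STZ against both controls, 1 with more reads (Mgmt) and 2 with fewer (Alkbh3 and Msh6). Each runs from 250 bases before to 50 bases after the annotated start and is written 5′ to 3′ on the gene's strand. The windows come from RefSeq on the GRCr8 assembly, matched by gene identifier and not by coordinates of the authors' build. Capitals mark GC boxes (GGGCGG) and CCAAT boxes (CCAAT) on either strand, so CCGCCC and ATTGG are the same motifs read on the other strand.
Mgmt, chr1:201140582-201140881, + strand: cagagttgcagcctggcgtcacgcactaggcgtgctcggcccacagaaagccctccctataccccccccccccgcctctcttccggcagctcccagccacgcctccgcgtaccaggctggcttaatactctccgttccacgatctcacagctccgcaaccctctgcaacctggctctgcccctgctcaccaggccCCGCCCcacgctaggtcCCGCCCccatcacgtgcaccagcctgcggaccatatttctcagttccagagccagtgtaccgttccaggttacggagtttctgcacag
Alkbh3, chr3:100427232-100427531, - strand: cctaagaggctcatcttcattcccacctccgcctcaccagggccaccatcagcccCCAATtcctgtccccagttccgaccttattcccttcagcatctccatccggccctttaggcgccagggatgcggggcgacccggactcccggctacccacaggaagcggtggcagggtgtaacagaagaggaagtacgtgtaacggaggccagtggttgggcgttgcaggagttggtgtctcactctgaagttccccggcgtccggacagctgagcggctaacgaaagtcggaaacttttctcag
Msh6, chr6:12333456-12333755, - strand: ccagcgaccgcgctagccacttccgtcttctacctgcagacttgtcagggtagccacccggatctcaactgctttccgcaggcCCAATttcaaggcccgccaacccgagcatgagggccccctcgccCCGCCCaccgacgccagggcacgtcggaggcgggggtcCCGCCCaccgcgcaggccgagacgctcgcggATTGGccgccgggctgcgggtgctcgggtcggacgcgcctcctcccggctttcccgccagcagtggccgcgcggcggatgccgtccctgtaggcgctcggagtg
The Mgmt window held 2 GC boxes, at 55 and 38 bases before the start, 19 CpG dinucleotides and no CCAAT box. The Alkbh3 window held 1 CCAAT box and no GC box. The Msh6 window held 2 of each motif and 38 CpG dinucleotides, and its GC content of 72.3% was above that of 94.4% of all windows in the table. All 8 genes had a window (9 windows, since Pms2 has a pair of starts 8 bases apart), and GC content ran from 59.7% to 72.3%, against a median of 51.7% over 33469 windows. A GC box was found in 6 of the 8 genes and in 33.1% of all windows, a CCAAT box in 4 of the 8 and in 37.5% of all windows. The E2F motif was searched only as TTTGGCGC or TTTCGCGC on both strands. These letters were found in 0 of the 8 and in 0.792% of all windows. Other forms of the motif were not searched, among them TTTCCCGC, which the Msh6 window holds, so the 0 covers the searched letters alone. How often that form occurs in the windows of other genes was not counted. A match describes letters in the window and is not a measured site of binding.

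By FPKM, which allows levels to be compared between genes, the 8 genes formed a high group of 5 and a low group of 3 in every library. Parp1 was the highest in each, followed by Xrcc1, Alkbh3, Msh6 and Pms2, and then by Mpg, Alkbh2 and Mgmt with lower levels. Parp1 had 59.5 FPKM in buffer, 51.6 in saline and 60.2 in STZ, above 89.2% to 90.9% of all genes. The median over all genes was 7.37, 7.57 and 7.74 FPKM in buffer, saline and STZ, so that Mpg, Alkbh2 and Mgmt lay below or close to it. Among neighbours in the order, the 95% Poisson counting intervals did not overlap in buffer. In saline they overlapped for Mgmt and Alkbh2, and in STZ for Msh6 and Pms2 and for Mpg and Mgmt. The lowest gene was Mgmt in buffer but Alkbh2 in saline and in STZ, and the highest level was 26.7 times the lowest in buffer, 16.2 times in saline and 16.1 times in STZ.

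**Figure D1:**
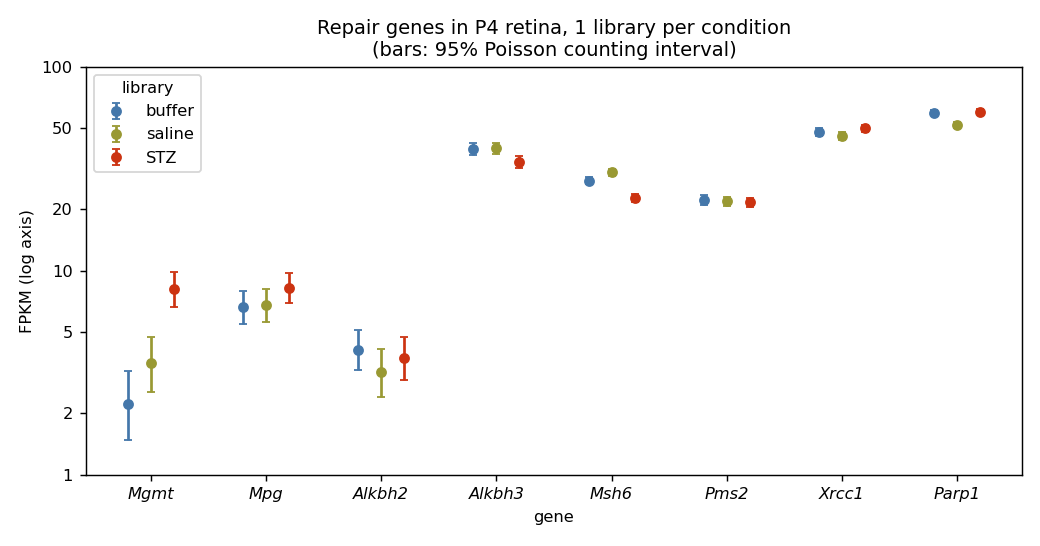
FPKM on a log axis of the 8 repair genes in the buffer, saline and STZ libraries, 1 library each, with 95% Poisson counting intervals as bars. Mgmt stands at 2.23, 3.52 and 8.10 FPKM, while each of the 5 more abundant genes stays above 20 FPKM in all 3 libraries.

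By the fold limits, 1 of the 8 genes was higher in STZ than in buffer, Mgmt, and 0 were lower, where 2.25% of all genes were higher and 1.04% lower. Against saline the same gene was higher and 0 were lower, with 2.04% of all genes higher and 1.75% lower. Between the controls, 0 of the 8 passed in saline against buffer, where 1.00% of all genes were higher and 0.429% lower. By the counting interval, which well-covered genes pass at small differences, 1 gene was higher in STZ than in buffer (Mgmt) and 2 were lower (Alkbh3 and Msh6), where 21.7% and 15.5% of all genes were called. Against saline 3 were higher (Mgmt, Xrcc1 and Parp1) and 2 lower (Alkbh3 and Msh6), beside 22.1% and 19.5% of all genes. In saline against buffer 1 was higher (Msh6) and 1 lower (Parp1), beside 13.3% and 9.80%. Here and below, these shares cover all genes, including those with few reads, which pass only at large differences. They were not matched for depth. The median log2 count ratio of the 8 was -0.01 in STZ against buffer, beside 0.04 over all 14885 genes with a mean of at least 10 reads, and 0.17 against saline, beside 0.02.

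**Figure D2:**
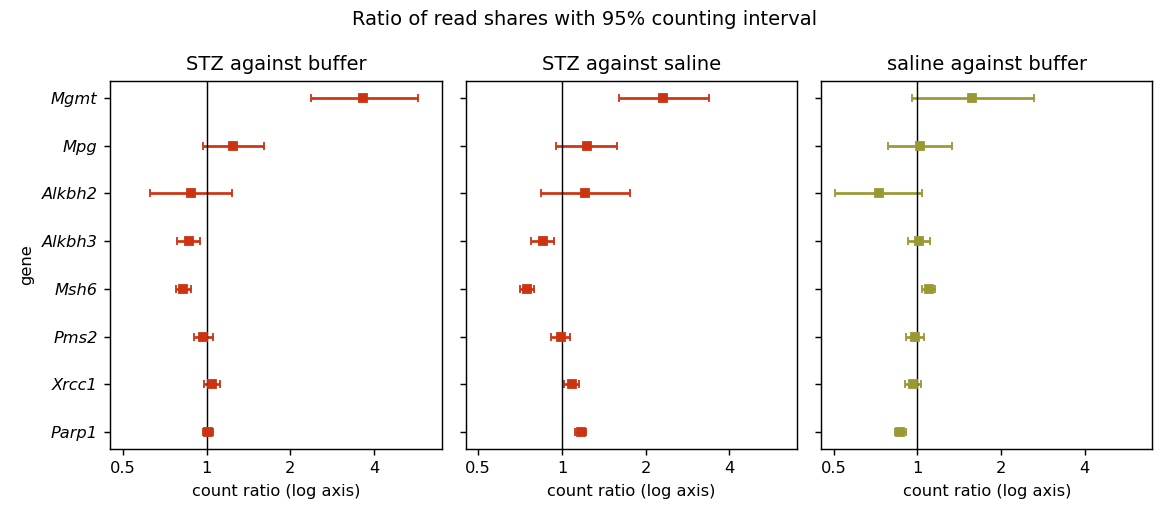
Count ratio on a log axis of the 8 repair genes in the 3 comparisons between the libraries, with exact 95% counting intervals as bars and a line at 1. Mgmt lies at 3.64 and 2.31 in the comparisons of STZ, while the other 7 genes lie between 0.751 and 1.25 there.

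Of the direct reversal genes, Mgmt (gene 25332) had the highest ratio of the 8. It had 28 reads in buffer, 44 in saline and 102 in STZ, or 2.23 FPKM (95% counting interval 1.48 to 3.22), 3.52 (2.56 to 4.73) and 8.10 (6.60 to 9.83). The STZ library was the highest and its interval overlapped neither control, whereas those of the controls overlapped. In STZ against buffer the fold was 2.82 and the count ratio 3.64 (2.37 to 5.74), and 65 of the 18425 genes had a fold at least as high, Mgmt included. Against saline the fold was 2.01 and the ratio 2.31 (1.61 to 3.37). Saline also lay above buffer, with a fold of 1.40 and a ratio of 1.57 (0.957 to 2.62), an interval that includes 1, so a difference between the controls was not detectable at this depth. Its level was above that of 36.8% of all genes in buffer and above that of 50.7% in STZ.

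Few reads make large ratios more common, so Mgmt was also set beside the 1972 genes with a mean of 29 to 116 reads. Of these, 7.45% passed the upper limit in STZ against buffer, 5.78% against saline and 3.14% between the controls. A count ratio as high as that of Mgmt was seen in 3.14% of them when STZ was set against buffer and in 4.46% when it was set against saline. The ratio of Mgmt between the controls was reached by 10.6% of them.

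**Figure D3:**
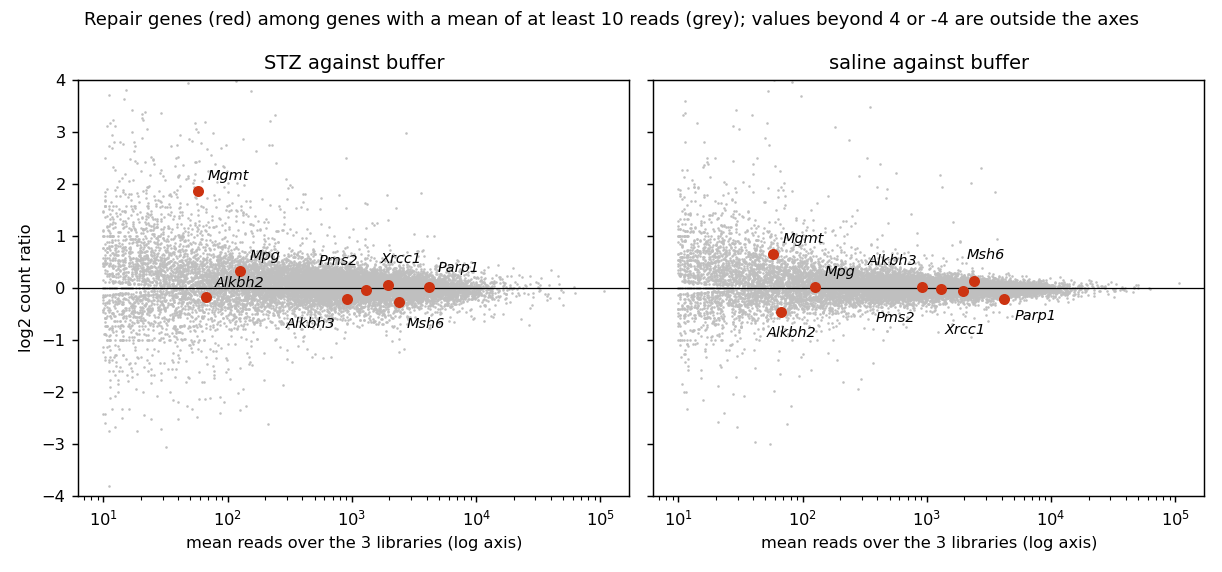
Log2 count ratio against the mean reads over the 3 libraries (log axis) for genes with a mean of at least 10 reads (grey) and the 8 repair genes (red), in STZ against buffer and saline against buffer. Mgmt lies at 1.86 and 0.65, while the other 7 genes lie between -0.46 and 0.32 in both panels, and genes beyond 4 or -4 are outside the axes.

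Retinal RNA is a mixture of cell types, and the summed microglial and lens crystallin lists were higher in STZ, as Mgmt was. Other marker lists were not. The share of the pigment and ciliary epithelium list in STZ was 0.855 of that in buffer and 0.518 of that in saline. For the blood list these ratios were 0.737 and 0.524. The 14 microglial genes checked, which mark the resident macrophages, summed to 1658 reads in buffer, 2051 in saline and 4597 in STZ, with none at 0 in any library. As shares of the library the sum in STZ was 2.77 times that in buffer and 2.24 times that in saline. Against each control 11 of the 14 genes passed the upper limit, where 2.25% of all genes did against buffer and 2.04% against saline. In saline against buffer 1 of the 14 passed it (1.00% of all genes). Between these controls 6 had intervals above 1 and 0 below it (13.3% and 9.80% of all genes). The 12 lens crystallin genes checked summed to 214, 632 and 4209 reads, with Cryba2 and Crybb2 at 0 in buffer. The part of any of these lists in the Mgmt values was not tested. In these bulk libraries more cells of a type and more RNA per cell cannot be told apart, and likewise fewer cells and less RNA per cell.

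The dioxygenase genes had ratios near or below 1 against buffer, unlike Mgmt. Alkbh2 (gene 304578), whose product works mainly on DNA in duplex form, had 77 reads in buffer, 56 in saline and 68 in STZ, or 4.11 FPKM (3.24 to 5.14), 3.19 (2.41 to 4.14) and 3.75 (2.91 to 4.75), and all 3 intervals overlapped. Its ratio was 0.882 (0.627 to 1.24) in STZ against buffer, 1.21 (0.838 to 1.76) against saline and 0.728 (0.506 to 1.04) between the controls. The STZ library lay between the controls, and differences inside these intervals could not be seen at this depth. The reads per FPKM of Alkbh2 were 18.7, 17.6 and 18.1, so the transcript length behind its FPKM was not the same in the 3 libraries.

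Alkbh3 (gene 362169), whose product prefers single strands and RNA, was lower in STZ by a small amount. It had 950, 959 and 820 reads, or 39.5 FPKM (37.0 to 42.0), 39.8 (37.3 to 42.4) and 34.0 (31.7 to 36.4). The controls were alike within counting error, at a ratio of 1.01 (0.923 to 1.11), and the STZ library was below both. The count ratio was 0.862 (0.784 to 0.947) against buffer and 0.853 (0.776 to 0.937) against saline, and the folds of 0.866 and 0.859 were well short of 0.65. Alkbh2 was far below Alkbh3 in each library, at 0.104, 0.0802 and 0.110 of its FPKM.

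Mpg (gene 24561), the glycosylase gene for methylated purines, had 116 reads in buffer, 118 in saline and 145 in STZ, or 6.63 FPKM (5.48 to 7.95), 6.76 (5.60 to 8.10) and 8.26 (6.97 to 9.72). The STZ library was the highest, but all 3 intervals overlapped. The count ratio was 1.25 (0.971 to 1.61) against buffer and 1.23 (0.955 to 1.58) against saline, and it was 1.02 (0.781 to 1.33) between the controls. A difference of STZ from either control was thus not detectable at this depth, and its interval leaves room for a ratio of up to 1.61.

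Xrcc1 (gene 84495), the gene of the scaffold that holds the single-strand break repair enzymes together, had 1948, 1876 and 2039 reads, or 47.7, 45.9 and 49.8 FPKM. The STZ library was the highest by a little. The count ratio was 1.04 (0.981 to 1.11) in STZ against buffer and 1.08 (1.02 to 1.16) against saline, and with a 99% interval the second no longer excluded 1. The ratio between the controls was 0.964 (0.904 to 1.03).

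Parp1 (gene 25591), which encodes the poly(ADP-ribose) polymerase that senses strand breaks and consumes NAD, had 4321, 3748 and 4387 reads, or 59.5, 51.6 and 60.2 FPKM. Here the saline library stood apart as the lowest, and buffer and STZ were close. The count ratio was 1.01 (0.972 to 1.06) in STZ against buffer, and its side of 1 changed with the scaling, which gave 0.985 to 1.01. Against saline it was 1.17 (1.12 to 1.22), and in saline against buffer 0.868 (0.831 to 0.907), so the difference from saline was of the size seen between the controls. The saline library also had more reads of the 12 pigment and ciliary epithelium genes checked, 16583 beside 10053 in buffer and 8611 in STZ, with Rpe65 at 0 in buffer, and of the 8 blood genes found, 1917 beside 1364 and 1007. Of the pigment and ciliary reads, Rlbp1 alone held 6996 in buffer, 6571 in saline and 5501 in STZ, so it was not higher in saline. By the counting interval 8 of the 12 were higher in saline than in buffer and 2 lower (13.3% and 9.80% of all genes). The part of these lists in the Parp1 values was not tested.

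Of the mismatch repair genes, Msh6 (gene 100360342) was lower in STZ than in both controls. It had 2461 reads in buffer, 2702 in saline and 2035 in STZ, or 27.6 FPKM (26.5 to 28.7), 30.3 (29.1 to 31.4) and 22.7 (21.8 to 23.8), and none of the 3 intervals overlapped another. The count ratio was 0.825 (0.778 to 0.876) against buffer and 0.751 (0.709 to 0.796) against saline. The controls differed by more than counting error as well, with a ratio of 1.10 (1.04 to 1.16) in saline against buffer. The folds of 0.832 and 0.759 did not reach 0.65, and 1295 of the 18425 genes had a fold against buffer as low or lower.

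Pms2 (gene 288479), which encodes a mismatch repair endonuclease, had the ratio closest to 1 against saline of the 8. It had 1317, 1291 and 1282 reads, or 22.2, 21.9 and 21.6 FPKM. The count ratio was 0.972 (0.899 to 1.05) in STZ against buffer, 0.991 (0.916 to 1.07) against saline and 0.981 (0.908 to 1.06) in saline against buffer, so ratios of STZ to buffer under 0.899 or over 1.05 lie outside its interval.

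The wider pathway was read through 7 lists with 74 genes, the 8 included. By the fold limits, 3 of the 74 were higher in STZ than in buffer and 1 was lower, where 2.25% and 1.04% of all genes were. Against saline 1 was higher and 1 lower, where 2.04% and 1.75% of all genes were. By the counting interval 13 were higher and 16 lower against buffer, where 21.7% and 15.5% of all genes were, and 17 were higher and 17 lower against saline, where 22.1% and 19.5% were. Between the controls, 0 passed the fold limits in either direction.

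In the direct reversal list, 1 of 7 genes passed the upper limit, Mgmt, where 2.25% of all genes did against buffer and 2.04% against saline. Ascc3, the helicase gene that works with ALKBH3, had 1062, 999 and 1277 reads and a ratio of 1.20 (1.11 to 1.30) in STZ against buffer, the opposite direction to Alkbh3. Of the reads of Alkbh3 and Ascc3 together, Alkbh3 held 47.2% (45.0 to 49.4) in buffer, 49.0% (46.7 to 51.2) in saline and 39.1% (37.0 to 41.2) in STZ.

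Among the 11 DNA glycosylase genes, 1 was past the lower limit, Ung, which encodes the uracil glycosylase that is abundant in replicating cells. Over all genes, 1.04% were past it against buffer and 1.75% against saline. By the counting interval, 3 of the 11 were lower than in buffer (Ung, Neil3 and Mbd4) and 1 higher, where 15.5% and 21.7% of all genes were. Ung had 353, 361 and 206 reads, a fold of 0.621 with a ratio of 0.583 (0.488 to 0.694) in STZ against buffer, and a fold of 0.609 against saline. Neil3, another glycosylase gene of dividing cells, had 101, 114 and 63 reads and a ratio of 0.623 (0.447 to 0.861) in STZ against buffer, with a fold of 0.727. Mutyh, with 496, 543 and 590 reads, was the 1 gene of this list with an interval above 1 against buffer, at 1.19 (1.05 to 1.34). The other 7, with Mpg left aside, had ratios from 0.839 (0.732 to 0.961), that of Mbd4, to 1.80, from the 5, 9 and 9 reads of Neil2.

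Of the 9 genes for abasic sites and single-strand breaks, 0 passed the fold limits (against buffer, 2.25% of all genes were higher and 1.04% lower). Apex1, the main abasic endonuclease gene, had 2236, 2208 and 1942 reads and a ratio of 0.867 (0.815 to 0.922) in STZ against buffer. Polb, the gap-filling polymerase gene, had 955, 858 and 1080 reads and a ratio of 1.13 (1.03 to 1.23), and was itself lower in saline than in buffer, at 0.899 (0.819 to 0.987). Lig3, the ligase gene whose product XRCC1 binds, had a ratio of 0.916 (0.876 to 0.958), but its counts were fractional, and the range covers no error from how they were estimated. Tdp1 had 358, 330 and 368 reads and a ratio of 1.03 (0.885 to 1.19).

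Of the 10 poly(ADP-ribose) genes, likewise 0 passed the fold limits (against buffer, 2.25% of all genes were higher and 1.04% lower). Chd1l, a chromatin remodeler gene whose product poly(ADP-ribose) activates, had 686, 776 and 500 reads and a ratio of 0.728 (0.647 to 0.818) in STZ against buffer. Oard1, a hydrolase gene that removes terminal ADP-ribose, had 412, 465 and 539 reads and a ratio of 1.31 (1.15 to 1.49). Hpf1, the gene of the PARP1 cofactor, had 574, 527 and 617 reads and a ratio of 1.07 (0.956 to 1.20), and Macrod1 had 147, 154 and 131 reads and a ratio of 0.890 (0.698 to 1.13). Parp1 stood at 4.003, 3.41 and 3.80 times the FPKM of Parp2, whose own ratio of STZ to buffer was 1.06 (0.938 to 1.20).

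Of the 8 mismatch repair genes, 1 had an interval below 1 against buffer (Msh6) and 1 above it (Mlh3), where 15.5% and 21.7% of all genes did. Against saline 2 were lower (Msh6 and Exo1) and 1 higher (Mlh3), where 19.5% and 22.1% of all genes were. Mlh3 had 739, 796 and 885 reads and a ratio of 1.20 (1.08 to 1.32). Exo1, the exonuclease gene of this pathway, had 207, 262 and 183 reads, with ratios of 0.883 (0.719 to 1.08) in STZ against buffer and 0.697 (0.574 to 0.845) against saline.

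The 17 genes of repair synthesis, whose products also replicate DNA, had a median log2 ratio of -0.09 in STZ against buffer, beside 0.04 over all genes with a mean of at least 10 reads. Against buffer 8 of the 17 had intervals below 1 and 1 above it (15.5% and 21.7% of all genes), and 15 of the 17 ratios were under 1, as were 6431 of the 14885 genes. Against saline 7 were lower and 2 higher (19.5% and 22.1% of all genes), and the median was again -0.09. Between the controls, 6 of the 17 were lower in saline than in buffer and 3 higher (9.80% and 13.3% of all genes), with a median of -0.03. Pcna, the sliding clamp gene, had 3074, 2908 and 2355 reads and a ratio of 0.765 (0.724 to 0.807) in STZ against buffer, and Fen1, the flap endonuclease gene, had 1350, 1238 and 1033 reads and a ratio of 0.764 (0.704 to 0.829). The exception with an interval above 1 was Pold2, with a ratio of 1.14 (1.03 to 1.27), and Rfc3 had 1.01 (0.913 to 1.11). Among list genes with a mean of at least 10 reads, the nearest to Msh6 in its pair of log2 ratios, STZ to buffer and saline to buffer, was Pole, the catalytic subunit gene of DNA polymerase epsilon, with 1104, 1262 and 933 reads and a distance of 0.066 over the 3 libraries. Macrod1 and Alkbh3 followed, at 0.127 and 0.136.

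Cell cycle genes were read beside Msh6. The 22 checked summed to 67467 reads in buffer, 66988 in saline and 57678 in STZ, with none at 0, and the share of the STZ library was 0.853 of that in buffer and 0.859 of that in saline. Against buffer 15 of the 22 had intervals below 1 and 2 above it, where 15.5% and 21.7% of all genes did. None of the 22 had fewer than 196 reads, and those shares were not matched for depth. The ratio of Msh6 to buffer, 0.825, was close to that of the summed list. The ratio between the controls was 1.10 for Msh6 and 0.994 for the sum. The sum leans on its abundant genes, such as Mki67 with 14620, 14608 and 10042 reads. By the counting interval, 4 of the 22 genes were higher in saline than in buffer, as Msh6 was, and 4 were lower (13.3% and 9.80% of all genes). The part of this list's difference in the Msh6 values was not tested.

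**Figure D4:**
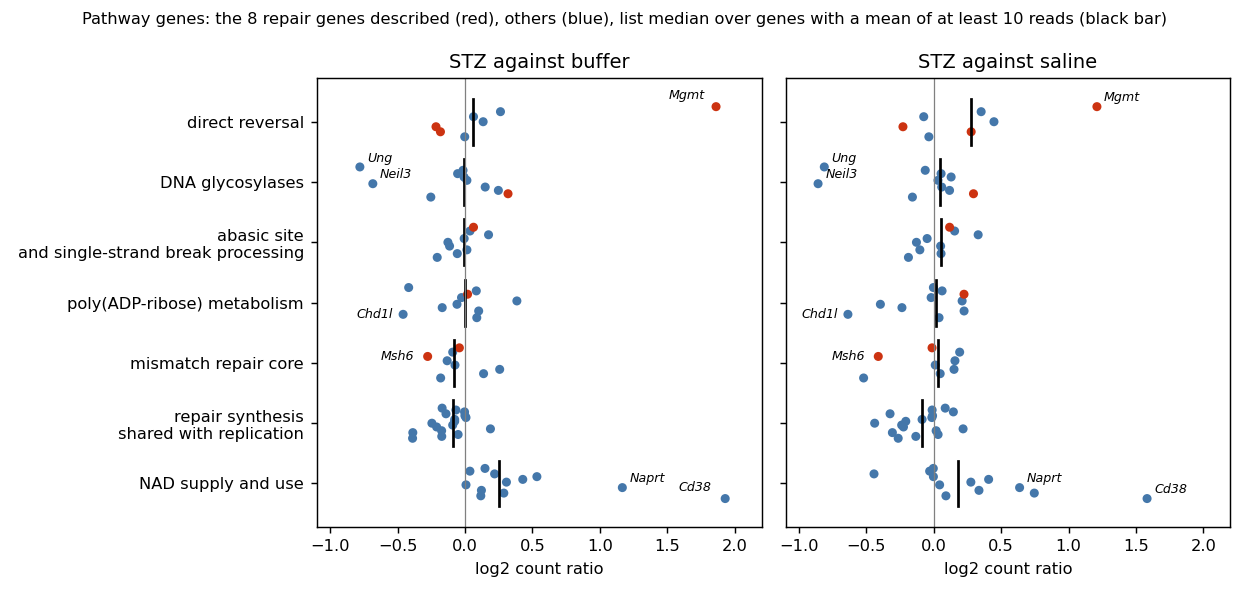
Log2 count ratio of the pathway genes with a mean of at least 10 reads in STZ against buffer and STZ against saline, by list, with the 8 repair genes in red, the others in blue and the median of each list as a black bar. Mgmt, Naprt and Cd38 lie to the right in STZ against buffer, and Ung and Neil3 to the left in both panels.

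NAD is the substrate from which PARP1 builds its polymer, and the 12 genes of NAD supply and use had a median log2 ratio of 0.25 in STZ against buffer, beside 0.04 over all genes. With the totals as deposited all 12 ratios were above 1, as were 8450 of the 14885 genes, and 6 of the 12 had intervals above 1 and 0 below it (21.7% and 15.5% of all genes). Against saline 6 intervals were again above 1 (22.1% of all genes), but 4 ratios were under 1 and the median was 0.18. Between the controls, 9 of the 12 ratios were above 1, with 1 interval above 1 and 2 below it (13.3% and 9.80% of all genes). The genes past the upper limit against buffer were Naprt, an enzyme gene of NAD synthesis from nicotinic acid, and Cd38, the gene of a cell surface enzyme that breaks NAD down. Naprt had 36, 52 and 81 reads, a fold of 1.63 and a ratio of 2.25 (1.499 to 3.43), and Cd38 had 11, 14 and 42 reads, a fold of 1.56 and a ratio of 3.81 (1.93 to 8.21). Neither passed against saline, where the folds were 1.33 and 1.45. The lowest folds of this list belonged to Nmnat1, at 0.932 with a count ratio of 1.01 (0.850 to 1.19), and Sarm1, at 1.02 with a ratio of 1.03 (0.954 to 1.10).

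Among list genes with a mean of at least 10 reads, those nearest to Mgmt in the same pair of log2 ratios were Cd38 at a distance of 0.312, Naprt at 0.706 and Nmrk1 at 1.33. Nmrk1 had only 20, 29 and 29 reads. All 3 have few reads, as Mgmt does, and wide counting intervals. The microglial list stood beside them with its ratios of 2.77 in STZ and 1.24 in saline against buffer, and its part in these values was not tested.

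**Figure D5:**
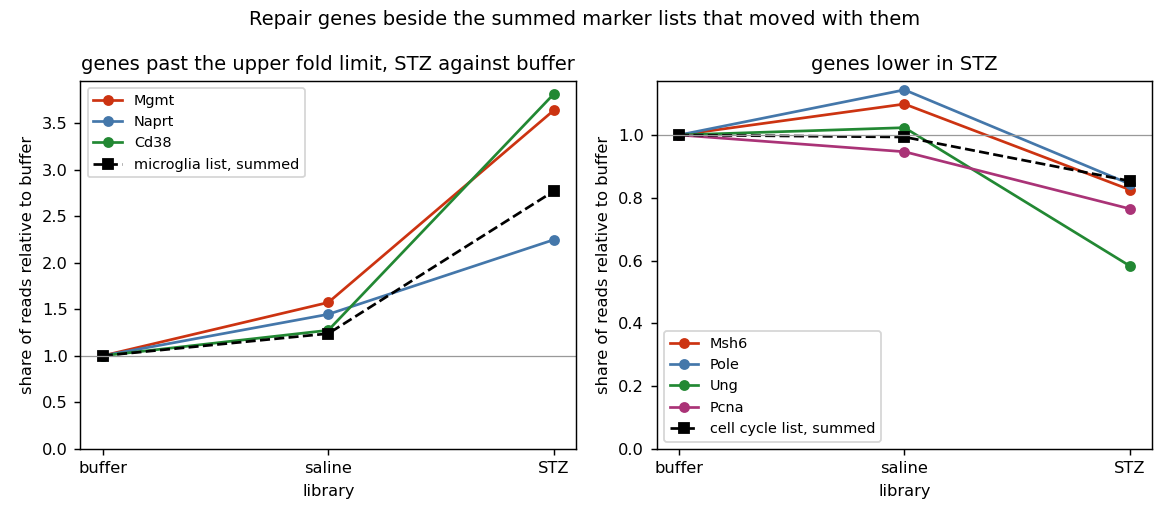
Share of library reads relative to buffer in the 3 libraries, on a linear axis from 0, for Mgmt, Naprt and Cd38 beside the summed microglial list (left) and for Msh6, Pole, Ung and Pcna beside the summed cell cycle list (right). The microglial list reaches 2.77 in STZ and Mgmt 3.64, and the cell cycle list reaches 0.853 and Msh6 0.825.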

How the data were processed

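Total RNA of P4 rat retinas was prepared with an Illumina TruSeq kit and sequenced on an Illumina HiSeq machine. The authors checked reads with FastQC, trimmed them, mapped them with TopHat2 allowing up to 2 mismatches and discarded reads with several genomic locations. The submitters' processing notes name rn6. The authors deposited an estimated count, an FPKM and a TPM per gene and library. Estimated counts were rounded before intervals were computed, and 12.9% to 13.2% of them were fractional. The tables per library and the table of the series hold the same values.

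Folds, count ratios and intervals were computed over all 18425 genes with Python 3.11.15 and scipy 1.17.1. The code was tested on simulated counts with counting error alone. The genes changed there had more reads than Mgmt and larger differences than Alkbh3 or Msh6. That test checks the calculation and does not cover error between animals. The fold limits are those of the study's methods. No count model was fitted. TMM factors came from edgeR 4.0.16 and size factors from DESeq2 1.42.0 in R 4.3.3, as scaling alternatives only, beside a pseudocount of 0.1, limits of 2 and 0.5, minimum mean reads of 10 or 50, TPM, CPM and a 99% interval. The 8 genes and the lists were chosen with earlier results of these data known. Named besides the 8 were list genes past a fold limit in STZ against either control, the 2 highest and 2 lowest folds of each list, the 3 list genes nearest to the highest and lowest of the 8, and totals of marker lists. Parp2, Neil2 and Nadsyn1 were named outside this rule, after values were seen. A few genes under the rule are not reported here. Adprs is listed as Adprhl2.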

Additional observations from a re-analysis of the deposited data

How the results depend on the processing

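No paired analysis was possible because each condition has 1 library, and for the same reason no replicate could be left out. For the 8 genes, 71 of 72 count ratios and 143 of 144 folds kept their side of the limits over the alternatives. The exceptions were Xrcc1 in STZ against saline, whose ratio of 1.08 no longer excluded 1 with a 99% interval, leaving 2 of the 8 higher there, and Mgmt in saline against buffer, whose fold of 1.55 with a pseudocount of 0.1 made 1 of the 8 genes higher between the controls. Values that were called in no setting changed their side of 1 with TMM and with median-of-ratios scaling for Parp1 in STZ against buffer, whose ratio became 0.985 and 0.987, and for Alkbh3 in saline against buffer, whose ratio became 0.994 and 0.996. The fold of Mgmt ran from 2.48 to 3.52 for STZ over buffer, from 1.88 to 2.27 for STZ over saline and from 1.32 to 1.55 for saline over buffer. Of the genes of the 7 lists, the number higher in STZ than in buffer became 1 with limits of 2 and 0.5, and the number lower became 2 with a pseudocount of 0.1 (Ung and Neil3) and 0 with limits of 2 and 0.5. Against saline, the number higher became 3 with a pseudocount of 0.1, with TPM and with CPM (Mgmt, Nadsyn1 and Cd38 with the pseudocount and with CPM), and the number lower became 2 with each of these and 0 with limits of 2 and 0.5. In saline against buffer, 1 list gene, Mgmt, was higher with a pseudocount of 0.1. In 72 of 72 alternatives the median log2 ratio of a list moved by less than the typical counting error of its genes, and some medians close to 0 changed sign. The error of single genes is a loose limit for a median. With a mean of at least 50 reads, the median of the NAD list fell from 0.25 to 0.15 in STZ against buffer. Against saline it rose from 0.18 to 0.27. The cause of these changes was not tested. Depth limits Mgmt, Alkbh2, Mpg, Cd38 and Naprt, whose intervals are wide, and the error between animals is not measured at all.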
